A study of Rattus norvegicus with 19 samples.

Results

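A set of 263 gene IDs, of 32883 in the count table, rose and fell together across 19 rat brain libraries and was far below its usual level in 3 of them. The members were chosen by their measured values across these libraries: the CPM of an ID (its count per 1000000 counts of the library) had to reach 5 in some library, the SD of log2(CPM + 1) over the libraries had to exceed 0.8, and Pearson's r with a seed ID, ENSRNOG00000028362, had to be at least 0.7. Of the 12702 IDs that reached 5 CPM, 526 also passed the SD threshold, and 263 of those met the correlation. Since all 19 libraries entered the rule, the levels of the members describe the libraries and carry no test of their own.

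The libraries came from female Wistar rats whose fathers belonged to 1 of 4 groups. The fathers were controls (5 daughters), had been given a high-fat diet (HFD, 4 daughters), had gone through early life stress (ELS, 5 daughters; the series text speaks of maternal separation), or had had both exposures (ELS-HFD, 5 daughters). All daughters were on chow, per the labels, and met the elevated plus maze, a test of anxiety-like behaviour, on postnatal day 57 ± 1. The sample labels give whole tissue lysate of brain, and the series text gives the amygdala and speaks of male rats, where every sample label says female. The labels name no father, litter or batch, so some daughters may share a father.

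The amygdala is a group of nuclei in the temporal lobe that attaches emotional weight to sensory input and is central to fear learning and anxiety. Its tissue holds excitatory and inhibitory neurons, astrocytes, oligodendrocytes, microglia and vessel cells, and a bulk library adds up the RNA of all of them. CPM is a share of a library, so a rise of abundant transcripts lowers the CPM of all others.

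The IDs are Ensembl gene IDs, and 0 of the 32883 could be paired with a symbol from the tables used here. The members are therefore described by their values, no cell type or pathway is named for them, and the tissue label was not checked against marker genes. In bulk tissue, fewer cells of a type and less RNA per cell cannot be told apart.

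Library totals ran from 7034837 counts in ELS-HFD replicate 2 to 20266594 in control replicate 1. HFD replicate 1, with 14102138 counts, and ELS-HFD replicate 3, with 14766188, were close to the median of 14027828, so only 1 of the 3 low libraries was a shallow one. No pair of libraries held identical values (0 pairs).

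The members were of moderate abundance. Their mean CPM over the libraries had a median of 30.7 and quartiles of 16.6 and 54.1, where the 15372 IDs kept for testing had a median of 19.1 and quartiles of 4.94 and 53.9. A single member stood above the others in level, ENSRNOG00000011076, with a mean of 568 CPM, and the next was at 235 CPM. The mean exceeded 100 CPM in 26 members and was under 10 CPM in 39, and the 10 most abundant members held 19.8% of the members' summed CPM. Members were found at every level: they made up 1.33% of the IDs under 10 CPM, 2.36% of those from 10 to 30 CPM, 2.75% of those from 30 to 100 CPM and 1.28% of those above.

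In the control libraries the seed ID was at 169, 197, 122, 182 and 101 CPM in replicates 1 to 5. The HFD libraries had 14.5, 211, 127 and 161 CPM in replicates 1 to 4. The ELS libraries had 251, 200.1, 223, 279 and 209.5 CPM in replicates 1 to 5. HFD replicate 1 thus lay below every other library, the other HFD replicates overlapped with the controls, and all 5 ELS libraries lay above all 5 controls. The ELS-HFD libraries had 94.9, 43.9, 41.3, 195 and 108 CPM in replicates 1 to 5. Replicates 2 and 3 of that group were next above HFD replicate 1, and replicate 4 was close to the highest control. The 14.5 CPM rested on 204 counts, with a 95% Wilson interval of 12.6 to 16.6 CPM that covers counting error only, which reaches the value of no other library.

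The most abundant member, ENSRNOG00000011076, followed the seed with r = 0.977. In the control libraries it was at 605, 708, 496, 669.5 and 489 CPM in replicates 1 to 5. Its level was 51.2, 679, 465 and 657 CPM in HFD replicates 1 to 4. In the ELS libraries it was at 861, 624, 804, 913 and 742 CPM in replicates 1 to 5. HFD replicate 1 again lay far below the rest, and 1 ELS library fell among the controls. It stood at 408, 248, 229, 718 and 422 CPM in ELS-HFD replicates 1 to 5, with replicates 2 and 3 lowest of that group. Of the ELS-HFD libraries, only replicate 4 lay inside the range of the ELS libraries.

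**Figure D1:**
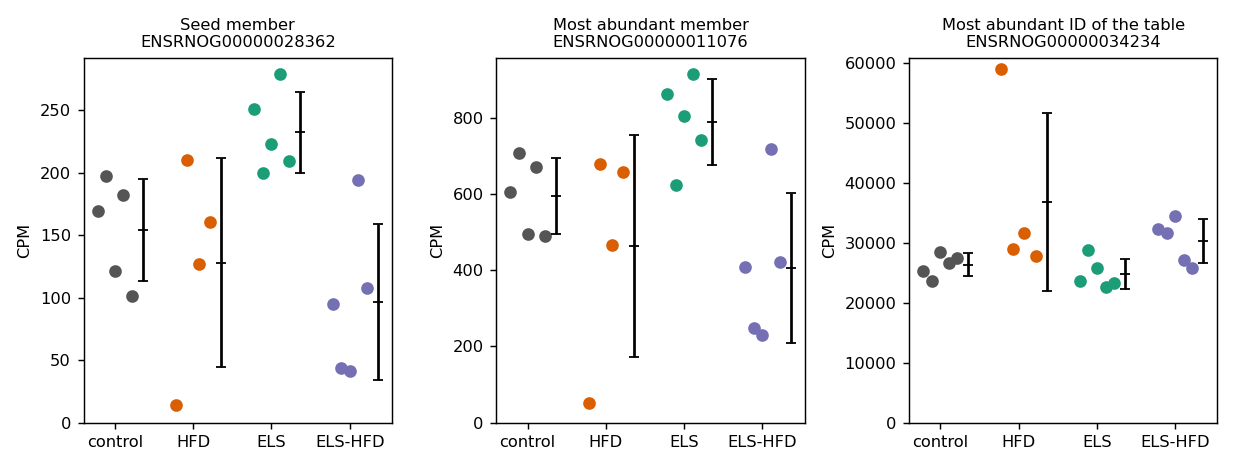
CPM in each library (points) with the group mean and SD (black bars) for the seed member, the most abundant member and the most abundant ID of the whole table; n is 5, 4, 5 and 5. Both members are lowest in HFD replicate 1 (14.5 and 51.2 CPM), where the most abundant ID of the table is highest (59012 CPM).

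Over all members the same libraries stood low. In HFD replicate 1 a member was typically at 10.1% of its own median over the 19 libraries (5th to 95th percentile of members 4.46% to 17.2%). It was at 32.6% (18.9% to 57.5%) in ELS-HFD replicate 2 and at 32.1% (20.2% to 49.8%) in ELS-HFD replicate 3. In the other 16 libraries this median ran from 68.0% in ELS-HFD replicate 1 to 139% in ELS replicate 4. HFD replicate 1 was the lowest library for 256 members and ELS-HFD replicate 2 for 7. For 241 members, all 3 of these libraries lay below all other 16, which was so for 16.3% of the 15372 IDs tested.

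**Figure D2:**
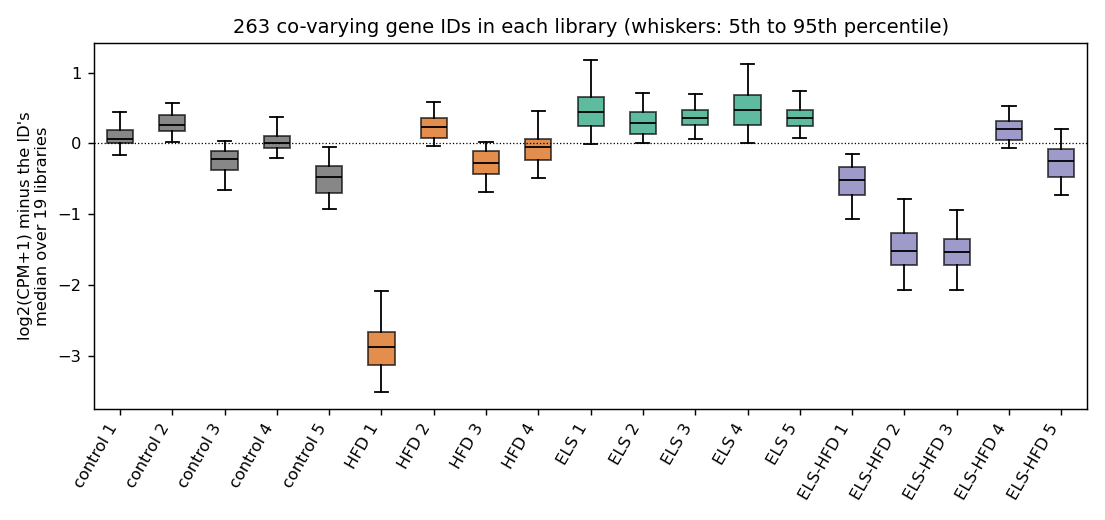
Level of the 263 members in each library, as log2(CPM + 1) minus the member's own median over 19 libraries (boxes: quartiles; whiskers: 5th to 95th percentile; colours: groups). The mean over members is -2.87 in HFD replicate 1, -1.49 and -1.52 in ELS-HFD replicates 2 and 3, and between -0.54 and 0.50 in the other 16 libraries.

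The low level was a reduction and seldom an absence. In HFD replicate 1, 1 member had no count and the median member had 46 counts, against medians of 289 to 719 in the 16 other libraries. ELS-HFD replicate 2 also had 1 member at 0, with a median of 75 counts, and ELS-HFD replicate 3 had none at 0, with a median of 142. The reduction was somewhat deeper in members of low abundance: in HFD replicate 1 the median percentage of a member's own median was 7.77% for members under 10 CPM and 11.3% for those above 100 CPM. In ELS-HFD replicate 2 these values were 26.7% and 35.3%, and in ELS-HFD replicate 3 they were 29.8% and 35.0%. The rule itself can give such a gradient. The 1 added to CPM before taking log2 shrinks falls at low CPM. Members of low abundance thus needed deeper falls to pass the SD threshold. On the log2(CPM + 1) scale the median SD was 0.849 under 10 CPM, 0.886 from 10 to 30 CPM, 0.897 from 30 to 100 CPM and 0.851 above 100 CPM.

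ELS-HFD replicates 2 and 3 were close to each other member by member, although their totals differed. The difference between them on the log2(CPM + 1) scale had a median size of 0.20, exceeded 1 in 4 members, and was above 0 in 152 of the 263.

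The members took between 0.908% and 1.79% of the counts in the other 16 libraries, with a median of 1.46%. Their share was 0.142% in HFD replicate 1 (95% Wilson interval 0.140% to 0.144%), 0.460% in ELS-HFD replicate 2 (0.455% to 0.465%) and 0.440% in ELS-HFD replicate 3 (0.437% to 0.443%). Counting error was at most 0.0074 percentage points to either side in any library, far less than the differences between libraries of 1 group.

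The share of the most abundant IDs moved the other way. The 10 most abundant IDs of a library took 25.8% of the counts in HFD replicate 1, 14.8% in ELS-HFD replicate 2 and 16.7% in ELS-HFD replicate 3, against 8.997% to 13.9% in the other 16. The most abundant ID of the table, ENSRNOG00000034234, was at 59012 CPM in HFD replicate 1, 31584 in ELS-HFD replicate 2 and 34523 in ELS-HFD replicate 3, and at 22590 to 32309 CPM in the others. Of the 10 IDs with the highest mean CPM, all 10 had a negative r with the seed (from -0.89 to -0.24), and 9 were highest in HFD replicate 1. With these 10 IDs taken out of the totals, the members' share was 0.191% in HFD replicate 1, 0.540% in ELS-HFD replicate 2 and 0.528% in ELS-HFD replicate 3, and 1.05% to 2.004% in the other 16, so the 3 libraries stayed below all others.

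**Figure D3:**
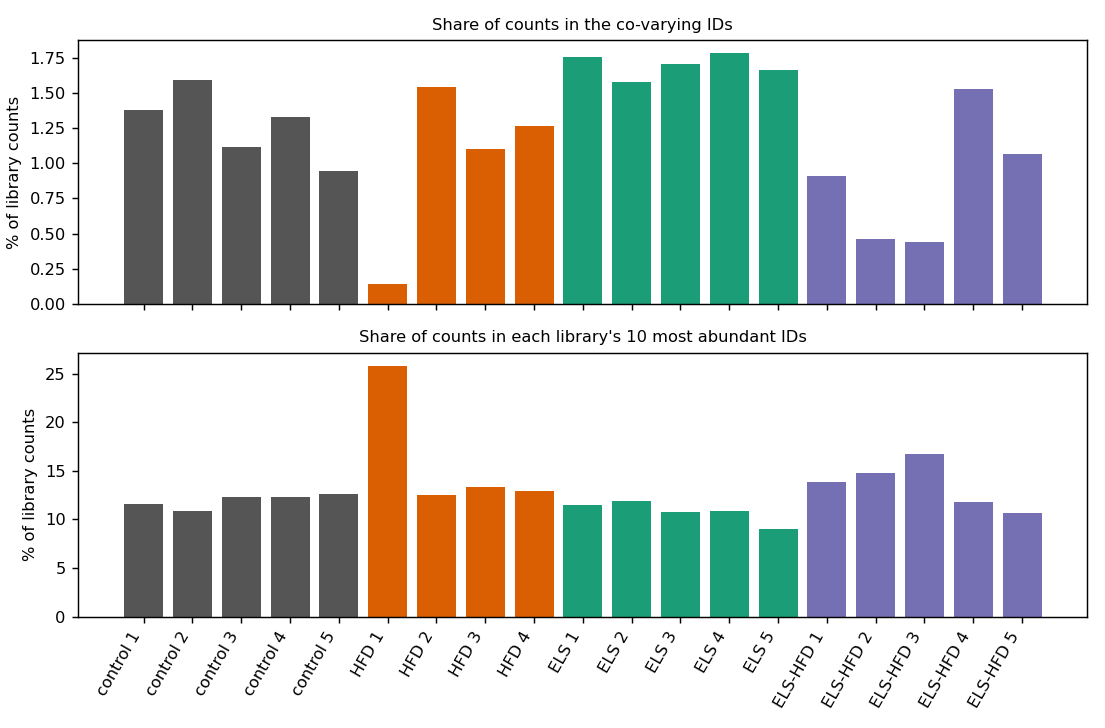
Percent of each library's counts in the 263 members (top) and in the library's own 10 most abundant IDs (bottom), with bars from 0 and colours by group. HFD replicate 1 has the smallest share in the members (0.142%) and the largest in the 10 most abundant IDs (25.8%).

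Other measures that bear on RNA content set HFD replicate 1 apart more than the other two. At the depth of the smallest library (7034837 counts), 16919 IDs would be expected with a count in HFD replicate 1, 17579 in ELS-HFD replicate 2 and 17736 in ELS-HFD replicate 3, against 17185 to 18185 in the others. The effective number of IDs, the exponential of the Shannon entropy of the counts, was 1462 in HFD replicate 1, 2893 in ELS-HFD replicate 2 and 2607 in ELS-HFD replicate 3, and 3024 to 3967 in the others. IDs beyond the 1000 most abundant held 33.9%, 42.9% and 41.6% of the counts in these 3 libraries and 43.7% to 47.7% elsewhere. All 3 libraries were thus less even than the other 16, but ELS-HFD replicates 2 and 3 were not poorer in detected IDs. RNA integrity and gene length were not analysed here, and the part of RNA quality or of cell content in the low member levels was not tested.

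Many more IDs than the members were low in these libraries. In HFD replicate 1, 4310 IDs (28.0% of those with a median CPM above 0) were under 50% of their own median, in ELS-HFD replicate 2 it was 1298 (8.45%) and in ELS-HFD replicate 3 it was 1270 (8.26%), against 1.16% to 3.99% in the others. The members accounted for 263, 242 and 250 of them. IDs over 2 times their median were at 3.08%, 3.501% and 2.78%, within the 0.618% to 5.62% of the other libraries. These values use CPM on column sums. The median ID was at 75.9% of its own median in HFD replicate 1, 100% in ELS-HFD replicate 2 and 99.1% in ELS-HFD replicate 3. In the other 16 libraries it was at 98.2% to 105%. The lower level in HFD replicate 1 raises its number of IDs under 50% and lowers its number over 2 times.

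The thresholds place the members at the far end of a broad gradient. Without the SD threshold, 3753 IDs (29.5% of the 12702 that reached 5 CPM) had an r of at least 0.7 with the seed, with a median SD of 0.41, and 1364 (10.7%) had an r of -0.7 or less, with a median SD of 0.25. No ID of the latter kind passed the SD threshold (0 of 1364, with a largest SD of 0.57), so no opposite set of the same amplitude was found. The member nearest inside the correlation threshold had an r of 0.702, and the next IDs outside it had 0.684, 0.668 and 0.66. Among IDs with sufficient r, the nearest on either side of the SD threshold had SDs of 0.801 and 0.7999.

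Within the set the pattern was close to uniform. The median r of the other 262 members with the seed was 0.965, and 235 of them exceeded 0.9. A single component held 91.5% of the members' variance on the log2 scale and the next held 2.89%. The SD of a member ran from 0.80 to 1.15, and the distance between its lowest and highest library had a median of 3.52 log2 units.

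The covariation did not rest on the 3 low libraries alone, though much of its amplitude came from them. With HFD replicate 1 and ELS-HFD replicates 2 and 3 left out, 216 of the 262 members still had an r of at least 0.7 with the seed and the median r was 0.861, against a median of 0.045 and a share of 10.46% among all IDs that reached 5 CPM. These 16 libraries also took part in choosing the members, so this is a description. The median r between pairs of members was 0.934 over 19 libraries and 0.748 over 16, and the leading component held 71.6% over 16. The median SD of a member fell from 0.88 to 0.39, and 1 member kept an SD over 0.8. The rule asked for an SD over 0.8 across all 19 libraries, so this fall is a description too. Without HFD replicate 1 alone, the whole rule found 19 IDs, all of them members.

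**Figure D4:**
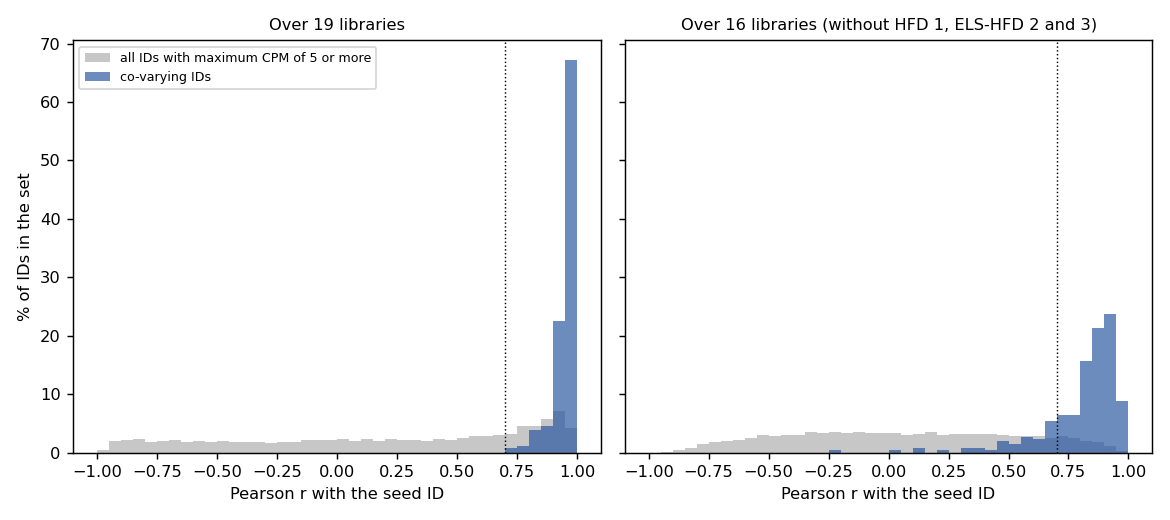
Distribution of Pearson's r with the seed ID, as percent of IDs in bins of r, for the members (blue) and for all IDs that reached 5 CPM (grey), over 19 libraries (left) and over 16 (right); the dotted line marks the threshold of 0.7. Over 16 libraries 216 of 262 members stay at or above the threshold.

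Over all 19 libraries most members were highest in daughters of ELS fathers. A member had its highest library in the ELS group in 226 of 263 cases (85.9%), where this was so for 35.6% of all IDs tested. Group means over all 19 libraries were highest in ELS for 258 members, against 42.5% of all IDs tested. Control was highest for the remaining 5. The seed was itself highest in ELS replicate 4 (279 CPM), and the members were chosen for following the seed. Their high level in ELS is therefore a description. The lowest mean was in HFD for 149 members, 56.7% of them against 49.1% of all IDs, and in ELS-HFD for 114, 43.3% against 14.2%. These are the groups that hold the 3 low libraries, and their means include them.

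The members' share of counts was 1.27% ± 0.248 (SD, n = 5) in control, 1.01% ± 0.608 (SD, n = 4) in HFD, 1.70% ± 0.0806 (SD, n = 5) in ELS and 0.880% ± 0.454 (SD, n = 5) in ELS-HFD libraries. The ELS libraries varied least and did not overlap with ELS-HFD, while the HFD and ELS-HFD groups overlapped with each other and with control. Without the 3 low libraries HFD was at 1.30% ± 0.223 (SD, n = 3) and ELS-HFD at 1.17% ± 0.323 (SD, n = 3), each within 1 SD of the control mean.

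Group differences were fitted with edgeR over 15372 IDs, all 263 members among them. The comparisons share libraries: control enters 3 of the 5 pairs, and ELS-HFD enters 3. A member was called where its Benjamini-Hochberg adjusted p was under 0.05. Counts at an unadjusted p under 0.05 are read beside the share of all IDs with such a p in the same direction and fit. All of these libraries took part in choosing the members, so the members' counts and directions are descriptions in every comparison.

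For ELS-HFD against ELS, which sets the diet's addition against stress alone, all 263 members had a negative log2 fold change. The median was -0.95, against 0.01 over all IDs tested, with a median SE of 0.42 per member. For the seed it was -1.22 ± 0.45 (SE). edgeR called 0 members, as it called 0% of all IDs. At an unadjusted p under 0.05, 151 members were lower, against 11% of all IDs, and 0 were higher. In 108 members all 5 ELS-HFD libraries lay below all 5 ELS libraries, against 4.92% of all IDs. DESeq2 called 14 members, all lower, against 0.67% of all IDs, and limma-voom called 0.

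The number of calls moved with a library outside the comparison. Without HFD replicate 1 the edgeR fit called 164 members, all lower, against 7.92% of all IDs. The edgeR fit to the ELS and ELS-HFD libraries alone, which also lacks that library, called 0 members, with a smallest Benjamini-Hochberg adjusted p of 0.0548, and had 221 lower at an unadjusted p under 0.05, against 15.3% of all IDs. Without ELS-HFD replicates 2 and 3 as well, edgeR called 0 members, the median log2 fold change was -0.51, and 166 members were lower at an unadjusted p under 0.05, against 9.8% of all IDs. The 151 members became 90, 86 and 233 when ELS-HFD replicate 2, 3 or 4 was left out, against 6.42%, 6.24% and 15.4% of all IDs. They became 241 with HFD replicate 1 left out, against 16.6%. In these omissions of 1 library the share of all IDs moved in the same direction as the members' count. With the 3 low libraries left out, the members' count rose from 151 to 166 while the share fell from 11% to 9.8%.

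For ELS against control, whose groups hold none of the 3 low libraries, members were higher in ELS. These groups also took part in choosing the members, and the seed was itself higher in all 5 ELS libraries than in all 5 controls. The members' direction is therefore a description. The 3 low libraries still enter the fit through its shared estimate of the spread. The median log2 fold change was 0.42 against -0.0022 over all IDs, 259 members were positive and 4 negative, and the seed was at 0.55 ± 0.45 (SE). edgeR called 0 members (0% of all IDs), as did limma-voom, and DESeq2 called 0 members and 0.00651% of all IDs. At an unadjusted p under 0.05, 11 members were higher, against 2.2% of all IDs, and 0 were lower. All 5 ELS libraries lay above all 5 controls in 58 members, against 2.51% of all IDs. The 11 members became 51 when HFD replicate 1 was left out, against 4.86% of all IDs. Leaving out control replicate 1, 3 or 5 gave 7, 3 and 5 members, against 1.76%, 1.24% and 1.60% of all IDs. Leaving out ELS replicate 1 or 4 gave 5 each time, against 1.18% and 1.40%. With the 3 low libraries left out of the fit, 149 members were at an unadjusted p under 0.05, all higher, against 7.75% of all IDs, and edgeR called 0.

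HFD against control asks about the father's diet alone. The median log2 fold change of the members was -0.29, with 250 negative, and the seed was at -0.23 ± 0.47 (SE). edgeR called 0 members (0% of all IDs), as did limma-voom, and DESeq2 called 0 members and 0.0325% of all IDs. With edgeR 3 members were lower at an unadjusted p under 0.05, against 3.02% of all IDs. The direction turned when HFD replicate 1 was left out: without it the median was 0.06, with 172 members positive and 91 negative. Without HFD replicate 2 it was -0.58, and 6 members were lower at an unadjusted p under 0.05, against 4.13% of all IDs. limma-voom gave a median of -0.63 with all libraries.

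ELS-HFD against control gave a median of -0.54, with all 263 members negative and the seed at -0.67 ± 0.45 (SE). edgeR called 0 members (0% of all IDs), as did limma-voom and DESeq2, with 6 lower at an unadjusted p under 0.05, against 2.03% of all IDs. Without the 3 low libraries the median was -0.12, with 204 members negative and 59 positive. The 6 members became 0, 0 and 105 when ELS-HFD replicate 2, 3 or 4 was left out, against 0.991%, 1.12% and 6.68% of all IDs. They became 75 with HFD replicate 1 left out, against 5.92%. Omitting ELS-HFD replicate 1 or 5 gave 2 and 12, against 1.73% and 3.20%. Omitting control replicate 1, 2 or 4 gave 2, 1 and 2, against 1.40%, 1.11% and 1.43%.

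ELS-HFD against HFD gave a median of -0.22, with 241 members negative, and the seed was at -0.44 ± 0.47 (SE). edgeR called 0 members (0% of all IDs), and 0 were at an unadjusted p under 0.05, against 3.38% of all IDs. limma-voom and DESeq2 also called 0 members (DESeq2 called 0.0195% of all IDs), and the limma-voom median was -0.03. Each of the groups holds low libraries, and without HFD replicate 1 the median was -0.56, with 68 members lower at an unadjusted p under 0.05, against 5.48% of all IDs. Without ELS-HFD replicate 4 the median was -0.53 and that number was 21, against 2.76%. The direction turned when HFD replicate 2 was left out, with a median of 0.05, 166 members positive and 97 negative. It shrank to -0.07 and -0.05 when ELS-HFD replicate 2 or 3 was left out, and to -0.12 when HFD replicate 4 was.

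Averaged over early life, the father's diet went with a median of -0.62, all 263 members negative and the seed at -0.73 ± 0.33 (SE). edgeR called 0 members (0% of all IDs), and 113 were lower at an unadjusted p under 0.05, against 10.2% of all IDs. DESeq2 called 3 members, all lower, against 0.546% of all IDs, and limma-voom called 0. Without the 3 low libraries, which all belong to the diet's side of this comparison, the median was -0.24 and 61 members were lower at an unadjusted p under 0.05, against 5.21% of all IDs. The 113 members became 59, 62 and 225 when ELS-HFD replicate 2, 3 or 4 was left out, against 6.93%, 6.73% and 14.4% of all IDs. They became 198 without HFD replicate 2, against 14.1%. edgeR then called 1 member, as lower, among 2 IDs called of 15547. Without control replicate 2 they became 61, against 6.98%.

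**Figure D5:**
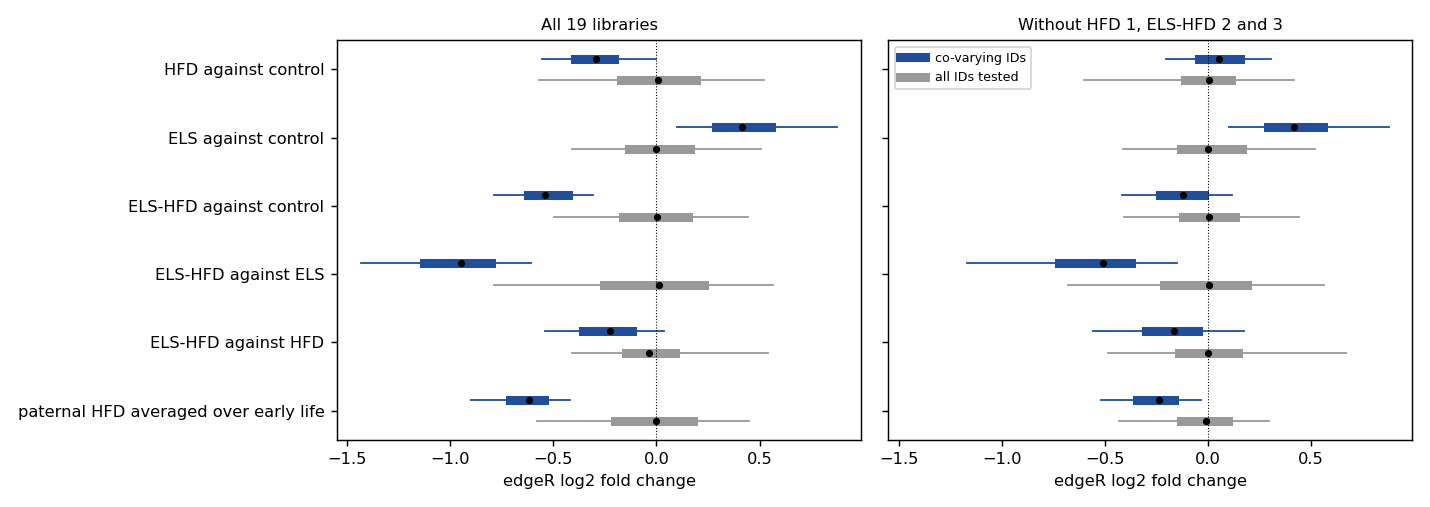
edgeR log2 fold changes of the 263 members (blue) and of all IDs tested (grey) in 6 comparisons, with all 19 libraries (left) and without the 3 low ones (right); dots are medians, thick lines quartiles and thin lines the 5th to 95th percentile. The members' median for ELS-HFD against ELS is -0.95 with all libraries and -0.51 without the 3, and for ELS against control it is 0.42 in each.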

How the data were processed

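RNA of 19 libraries was enriched for polyadenylated RNA from about 400 ng and primed at random, per the labels' protocols. The authors deposited whole-number counts per Ensembl gene ID, not normalized. Build Rnor_6.0 and DESeq2 are named in the submitters' processing notes. For the aligner, annotation release, strand setting and reads that match several genes, the sources used here give nothing.

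The members, lists and comparisons were chosen with earlier results of these data known. The rule used CPM on column sums with a pseudocount of 1. All 36 marker and pathway lists need gene symbols, as do the sequence tables, and were not used. By the naming rule at most 2 IDs that fell and 2 that rose are printed where no symbol is given: the seed, the most abundant member and, chosen after its values were seen, the most abundant ID of the table.

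Groups were compared with edgeR 4.0.16 (R 4.3.3): filterByExpr, TMM sizes and the quasi-likelihood F test in 1 fit over all 19 libraries, with no covariate beside the group. The SE is the size of the log2 fold change divided by the square root of F. DESeq2 1.42.0, limma-voom (limma 3.58.1), RLE size factors, no filter, fits to the compared groups, a replicate block and the omission of libraries were alternatives. TMM factors were 0.772 in HFD replicate 1 and 0.984 to 1.07 in the other 18, so CPM on column sums lies 0.37 log2 units lower than on TMM sizes in that library. On simulated counts for ELS-HFD against ELS (15223 IDs tested), 65% of IDs changed 2-fold and 95% of those changed 4-fold were recovered, with 7 false calls of 167. The simulated IDs were picked at random and varied independently, with no outlying library. These rates need not hold for the members, whose median SE was 0.42 against 0.20 over all IDs. No label names litters or fathers, so a p-value reflects variation among these animals only.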

Additional observations from a re-analysis of the deposited data

Results flagged for a closer look

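Among 32 groups of values, 4 had 1 library well separated from the others of its group. Chance alone would flag about 1 group in 20 for measures that played no part in choosing the members. HFD replicate 1 stood apart within the HFD group in the mean log2(CPM + 1) of the members (2.18), in the most abundant member, ENSRNOG00000011076 (5.71 as log2(CPM + 1)), and in what its 10 most abundant IDs took of the counts (25.8%). The first and second of these use the values that chose the members, so they are descriptions, and the 1 in 20 does not apply to them. HFD replicate 4 stood apart in its total of 10092297 counts, lower than the other HFD libraries. ELS-HFD replicates 2 and 3 were not far from their group by this measure, since they lay close to each other.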

How the results depend on the processing

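The rule found 164 IDs on TMM-adjusted sizes, all members, 28 with an SD over 1 and 0 without the 3 low libraries, and between 19 (without HFD replicate 1) and 317 (without control replicate 3) when 1 library was left out; the other settings gave 247 to 392. edgeR called 0 members in each comparison under RLE size factors, no filter, the replicate block and the omission of the 3 libraries, and in the 5 pairs fitted to the compared groups alone (no such fit was made for the averaged diet); limma-voom called 0. DESeq2 called 14 for ELS-HFD against ELS and 3 for the averaged diet. Leaving out 1 library gave 0 to 164 calls for ELS-HFD against ELS, 0 to 1 for the averaged diet and 0 elsewhere. At the 164, edgeR called 7.92% of all IDs as lower, and at the 1 it called 2 of 15547 IDs.

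Counts at an unadjusted p under 0.05 moved more. Leaving out 1 library gave 0 to 6 members for HFD against control, 3 to 51 for ELS against control, 0 to 105 for ELS-HFD against control, 86 to 241 for ELS-HFD against ELS, 0 to 68 for ELS-HFD against HFD and 59 to 225 for the averaged diet. At the upper ends, the share of all IDs in the members' direction was 4.13%, 4.86%, 6.68%, 16.6%, 5.48% and 14.4%. For the lower ends of 3, 86 and 59 members it was 1.24%, 6.24% and 6.93%. limma-voom had 8 for HFD against control, 12 for ELS-HFD against control and 246 for the averaged diet (3.51%, 2.50% and 14.8% of all IDs). Fits to the compared groups alone had 184 for ELS against control and 29 for ELS-HFD against control (9.37% and 4.06%). For ELS-HFD against HFD, DESeq2 and the fit with no filter each had 1, which was lower (1.37% and 1.36% of all IDs). Without the 3 libraries 149 members were higher for ELS against control, against 7.75% of all IDs. For ELS-HFD against control 3 were lower (2.18% of all IDs), and for the averaged diet 61 were lower (5.21%). For ELS-HFD against HFD 4 members had such a p in either direction, against 5.38% of all IDs. The causes were not tested.

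With totals that leave out the 10 most abundant IDs, chosen after seeing the data, the members took 1.90% in ELS libraries; totals without mitochondrial IDs were not run, as no ID was named. TMM sizes gave 87 members in place of 108 whose ELS-HFD and ELS libraries do not overlap (3.77% of all IDs), and 48 in place of 58 for ELS against control (1.93%). Replicate numbers did not pair the libraries: the deviations of same-numbered libraries from their group means correlated at over 0.1 in 9 of 27 pairs (-0.44 to 0.57). With the replicate block, the members at an unadjusted p under 0.05 numbered 144 for ELS-HFD against ELS and 131 for the averaged diet, and the block changed no call.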
